A study of Mus musculus with 2 samples.

Results

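The genes described here are 10 members of the NF-kappaB system: the 5 subunit genes Nfkb1, Nfkb2, Rel, Rela and Relb, the inhibitor and IkappaB-type genes Nfkbia, Nfkbie, Nfkbiz and Tnfaip3, and the cytokine gene Tnf. They were taken by symbol and found through their Entrez identifiers among 15605 genes listed in either library, and all 10 were listed in both. RNA came from peritoneal macrophages, the phagocytes of the abdominal cavity, of C57BL/6 mice aged 6 to 8 weeks. One sample was Lgmn-/- and the other wild type, and Lgmn encodes legumain, a lysosomal cysteine protease. Both had spent 4 days in co-culture with the EO771 line of mouse mammary carcinoma. How Lgmn was deleted, how many mice were pooled and whether a membrane separated macrophages from carcinoma cells are not given in the sources used here.

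NF-kappaB proteins are dimeric transcription factors that share a Rel homology domain for DNA binding and dimer formation. In a resting cell IkappaB proteins hold the dimers in the cytoplasm. Signals such as TNF or bacterial products activate the IkappaB kinase complex, IkappaB is degraded, and the dimers enter the nucleus. In macrophages they switch on Tnf and other inflammatory genes together with the genes of their own inhibitors, which closes a negative feedback loop. A second, slower route runs through the kinase NIK and the processing of p100, the product of Nfkb2, and releases dimers that contain RelB.

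There was 1 library per genotype, so no difference had a replicate check, no p-value was computed, and higher and lower describe these 2 libraries. The Lgmn-/- library held 11740202 estimated counts and the wild type library 11885784. Lgmn itself had 426 estimated counts in the Lgmn-/- library and 23550 in the wild type library, an order that fits the genotype labels. A ratio is the Lgmn-/- count over the wild type count after TMM scaling, a factor that sets the bulk of genes equal between libraries, and its 95% interval is an exact Clopper-Pearson interval that covers counting error only. A gene entered the comparison with 2-fold when 1 of the libraries gave it 50 or more estimated counts, and all 10 members did. Over all 9499 genes tested, log2 ratios followed transcript length, so each ratio also has a value after a smoothed trend on length was subtracted, called length-adjusted. Scaling by library totals, or the deposited FPKM (fragments scaled to transcript length and to library depth), shifted the median log2 ratio of all genes from about 0 to 0.24 and 0.23, and raised the members by about the same amount. In bulk RNA, fewer cells of a type and less RNA per cell cannot be told apart.

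The DNA upstream of the members is shown first because kappaB elements, the decameric binding sites of NF-kappaB dimers, are the known route by which these genes respond to the factor they encode or restrain. Windows from RefSeq (GRCm38.p6) reaching from 250 bases before to 50 bases after an annotated transcript start were found for 7 of the 10 members, Nfkb2, Rel, Rela, Nfkbia, Nfkbie, Tnfaip3 and Tnf, in 10 windows. Both strands were searched for the kappaB consensus, a stretch that reads as the consensus on both strands was counted once, and overlapping matches were counted separately. The 250 bases before the start are printed 5′ to 3′ in the direction of the gene for Tnf, Nfkbia, Nfkbie and Rel, the 4 members with the largest ratios, and for Tnfaip3, whose ratio was closest to 1. Capitals mark consensus matches.
Tnf (chr17:35202008-35202257, minus strand): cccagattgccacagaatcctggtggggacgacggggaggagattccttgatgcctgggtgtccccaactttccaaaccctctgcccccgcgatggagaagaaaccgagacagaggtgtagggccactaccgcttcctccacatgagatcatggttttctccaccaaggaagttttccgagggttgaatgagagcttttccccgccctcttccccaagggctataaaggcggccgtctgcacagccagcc
Nfkbia (chr12:55492648-55492897, minus strand): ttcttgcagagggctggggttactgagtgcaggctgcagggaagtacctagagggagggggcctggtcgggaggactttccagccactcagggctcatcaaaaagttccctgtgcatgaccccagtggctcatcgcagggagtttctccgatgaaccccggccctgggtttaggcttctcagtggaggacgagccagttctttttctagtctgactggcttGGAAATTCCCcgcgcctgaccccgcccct
Nfkbie (chr17:45555450-45555699, plus strand): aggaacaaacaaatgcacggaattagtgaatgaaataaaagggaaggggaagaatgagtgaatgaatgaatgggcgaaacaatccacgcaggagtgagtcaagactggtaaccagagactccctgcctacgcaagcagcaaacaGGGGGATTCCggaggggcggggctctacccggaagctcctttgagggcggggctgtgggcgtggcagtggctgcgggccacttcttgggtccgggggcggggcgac
Rel (chr11:23770970-23771219, minus strand): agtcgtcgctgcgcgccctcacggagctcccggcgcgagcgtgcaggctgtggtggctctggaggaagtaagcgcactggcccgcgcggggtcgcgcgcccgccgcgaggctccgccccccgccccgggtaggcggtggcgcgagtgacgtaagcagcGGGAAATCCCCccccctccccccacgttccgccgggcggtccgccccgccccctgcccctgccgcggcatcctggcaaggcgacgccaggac
Tnfaip3 (chr10:19015411-19015660, minus strand): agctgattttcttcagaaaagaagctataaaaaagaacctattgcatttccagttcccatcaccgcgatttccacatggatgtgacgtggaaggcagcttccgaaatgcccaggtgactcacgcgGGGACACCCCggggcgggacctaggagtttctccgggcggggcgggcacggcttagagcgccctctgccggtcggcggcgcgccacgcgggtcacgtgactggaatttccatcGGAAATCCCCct

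A consensus match was present in at least 1 window of 5 of these 7 genes: Nfkb2, Rel, Nfkbia, Nfkbie and Tnfaip3. The same search found a match in 469 of the 7685 tested genes with a window, or 6.1%, and in 4.51% of all 32851 windows. Nfkbia held GGAAATTCCC, which starts 29 bases before the transcript start, and Nfkbie held GGGGGATTCC, which starts 106 bases before it. In Rel, GGGAAATCCC and the overlapping GGAAATCCCC lay 92 and 91 bases before the start. Tnfaip3 held GGGACACCCC at 125 bases and GGAAATCCCC at 12 bases before the start shown, and none in a second window. Nfkb2 had 3 windows, and its annotated gene start, at 46300994 on chromosome 19, lies upstream of them and had no window. Before the first start with a window, Nfkb2 held GGGAATTCCC and its overlapping partner GGAATTCCCC, at 39 and 38 bases, and GGGGCTTTCC at 11 bases. It also held GGAATGTCCC 236 bases before the second start, and GGGACTTTCC in the overlap of the windows of the second and the third start, 225 bases before the third. Tnf and Rela had no consensus match, which says only that these letters are not in their windows. A looser search for GGGNNNNNCC on both strands, which includes every consensus match, matched all 7 members and also 72.1% of the 7685 genes. Members with a match had ratios from 1.93, for Nfkbie, to 0.991, for Tnfaip3, and a match is a description of sequence, not a bound site.

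Of the 10 members, 9 had a ratio above 1, as did 4746 of the 9499 genes tested. The counting interval lay wholly above 1 for 8 members and wholly below 1 for 0, against 29.6% and 30.7% of all genes. By the 2-fold threshold 1 of 10 was higher, Tnf, and 0 were lower, while 6.05% of all genes tested were higher by that measure and 1.74% lower, so the count past 2-fold is near the background. With a threshold of 1.5-fold, 4 members were higher, Tnf, Nfkbie, Rel and Nfkbia, and 0 were lower, against 16.4% and 6.39% of all genes. None passed 4-fold in either direction, against 0.421% of all genes higher and 0.474% lower. The median log2 ratio of the members was 0.51, against -0.00061 over all genes tested. After length adjustment the median of the members was 0.49, and 2 members, Tnf and Nfkbia, were past 2-fold on the higher side and 0 on the lower, against 2.14% and 1.89% of all genes.

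**Figure D1:**
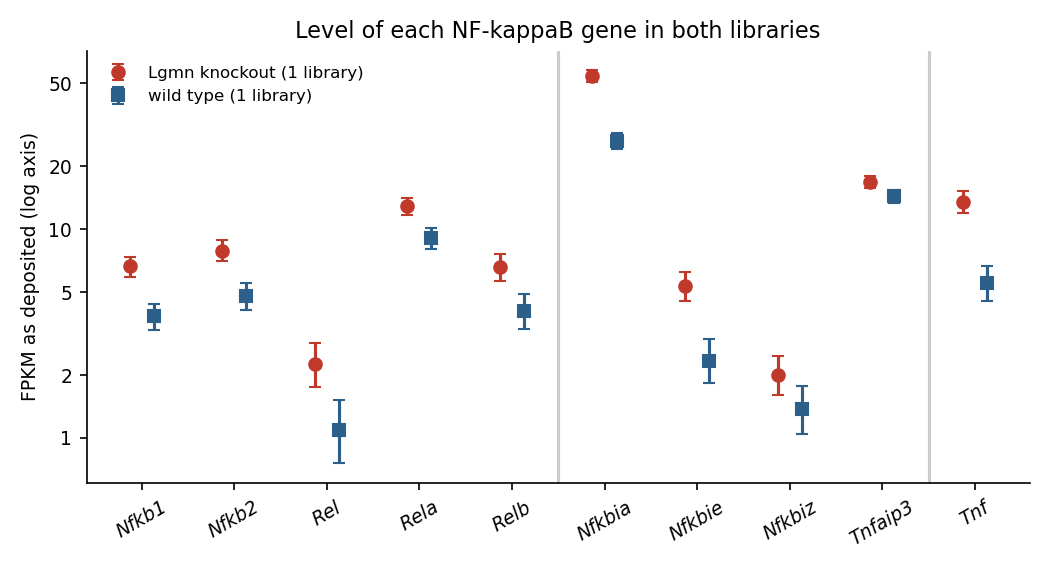
Deposited FPKM on a log axis of each member in the Lgmn-/- library (circles) and the wild type library (squares), with 95% exact Poisson intervals for counting error, and grey lines between subunits, inhibitors and Tnf. Each circle lies above its square, with the widest gap for Tnf, at 13.5 FPKM in the Lgmn-/- and 5.51 FPKM in the wild type library, and the narrowest for Tnfaip3, at 16.9 FPKM in the Lgmn-/- and 14.4 FPKM in the wild type library.

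Tnf encodes the cytokine that both activates NF-kappaB through its receptors and is a target of it. It lies on chromosome 17 at 35199367 to 35202007 in GRCm38. It had 263 estimated counts (13.5 FPKM) in the Lgmn-/- library and 109 (5.51 FPKM) in the wild type library, 2.07-fold higher (1.65 to 2.61). This was the largest ratio of the 10 genes, and 5.51% of all genes tested had a larger one. Its transcript of 1653 bases falls in the third of 10 equal groups of genes by length, 1527 to 1915 bases long, whose median log2 ratio was -0.20 and in which 5 of 951 genes were at least 2-fold higher. The log2 ratio of Tnf was 1.04, and 1.25 after length adjustment, when 1.04% of genes lay above it.

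The 5 subunit genes all had ratios above 1, by 1.21-fold to 1.74-fold, and none reached 2-fold. Rela encodes p65, a subunit with a transactivation domain and the usual partner of p50. It had 415 estimated counts (12.9 FPKM) in the Lgmn-/- library and 295 (9.03 FPKM) in the wild type library, a ratio of 1.21 (1.04 to 1.41). Rel encodes c-Rel, the transactivating subunit best known from lymphocytes and from control of Il12b in macrophages. Its 69 counts (2.25 FPKM) in the Lgmn-/- library and 34 (1.09 FPKM) in the wild type library gave a ratio of 1.74 (1.14 to 2.71). Rela thus had the smallest and Rel the largest ratio of the subunits, and the interval of Rel, which rests on the fewest reads, contains the ratios of all other subunits.

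Nfkb1 encodes p105, the precursor of p50, which lacks a transactivation domain. It had 327 estimated counts (6.63 FPKM) in the Lgmn-/- library and 191 (3.82 FPKM) in the wild type library, 1.47-fold higher (1.23 to 1.77). Nfkb2 encodes p100, which is both an inhibitor and the precursor of p52, and had 288 counts (7.89 FPKM) in the Lgmn-/- library and 178 (4.78 FPKM) in the wild type library, 1.39-fold higher (1.15 to 1.68). Relb encodes the subunit that pairs with p100 and p52 in the slower route. It had 173 counts (6.58 FPKM) in the Lgmn-/- library and 108 (4.05 FPKM) in the wild type library, 1.37-fold higher (1.07 to 1.76). The intervals of these 3 ratios overlap. Length adjustment took the log2 ratio of Nfkb1, whose transcript of 4128 bases is the longest of the subunits, from 0.55 to 0.30, and that of Relb, with the shortest at 2218 bases, from 0.46 to 0.56.

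Among the inhibitors that are members, the classical IkappaB genes Nfkbia and Nfkbie were higher in the Lgmn-/- library and Tnfaip3 was not. Nfkbib, which encodes IkappaB-beta and is not a member, was lower, at a ratio of 0.708 (0.644 to 0.777), and is described below. Nfkbia encodes IkappaB-alpha, which is degraded on stimulation, resynthesised quickly and carries dimers back out of the nucleus. It had 1017 estimated counts (54.2 FPKM) in the Lgmn-/- library and 506 (26.6 FPKM) in the wild type library, 1.72-fold higher (1.55 to 1.92). Nfkbie encodes IkappaB-epsilon, a feedback inhibitor with slower kinetics, and had 155 counts (5.35 FPKM) in the Lgmn-/- library and 69 (2.35 FPKM) in the wild type library, 1.93-fold higher (1.44 to 2.60). Neither reached 2-fold. Their length-adjusted log2 ratios of 1.003 and 0.999 sat on either side of the threshold, and 2.08% and 2.14% of genes lay above them.

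Nfkbiz encodes IkappaB-zeta, a nuclear member of the family that acts mainly as a coactivator of secondary response genes rather than as an inhibitor. It had 88 estimated counts (2.01 FPKM) in the Lgmn-/- library and 59 (1.37 FPKM) in the wild type library, a ratio of 1.28 whose interval of 0.910 to 1.81 includes 1. Its mean transcript length, weighted by the estimated use of 3 transcripts, was 3666 bases in the Lgmn-/- library and 3566 in the wild type library. Tnfaip3 encodes A20, a ubiquitin-editing enzyme that shuts off signalling from TNF and toll-like receptors to the IkappaB kinases. It had 884 counts (16.9 FPKM) in the Lgmn-/- library and 765 (14.4 FPKM) in the wild type library. Its ratio was 0.991 (0.899 to 1.09). Its log2 ratio changed sign with the processing, at -0.01 with TMM, -0.32 after length adjustment, and 0.23 with library totals or deposited FPKM. Over all genes tested the median log2 ratio was 0.24 with library totals and 0.23 with deposited FPKM. Tnfaip3 and Nfkbia had the most counts of the 10 genes in both libraries, so the interval of Tnfaip3 is narrow.

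**Figure D2:**
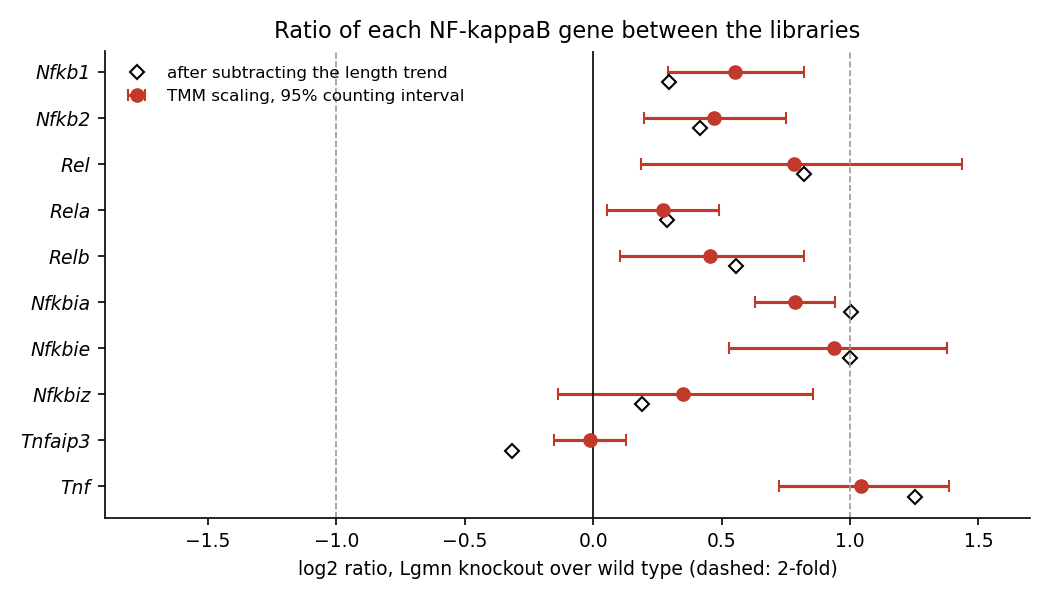
Log2 ratio of Lgmn-/- over wild type for each member after TMM scaling (filled circles, bars are 95% counting intervals) and after subtraction of the length trend (open diamonds), with dashed lines at 2-fold. Only Tnf lies past 2-fold with TMM scaling, at 1.04, and Tnfaip3 lies at -0.01, and at -0.32 after adjustment.

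Ratios of 1 member to another within a library do not depend on how libraries are scaled. Set against Rela, the subunit with the highest level, Tnf had 1.05 times its FPKM in the Lgmn-/- library and 0.610 times in the wild type library. Nfkbia had 4.21 times the FPKM of Rela in the Lgmn-/- library and 2.95 times in the wild type library, and Nfkbie 0.415 times in the Lgmn-/- library and 0.260 times in the wild type library. Tnfaip3 had 1.31 times the FPKM of Rela in the Lgmn-/- library and 1.59 times in the wild type library. Rela was chosen after its values were seen and had the smallest ratio of the subunits, so the values relative to it are a description. The summed FPKM of the 4 genes Nfkbia, Nfkbie, Nfkbiz and Tnfaip3 was 2.16 times that of the 5 subunits in the Lgmn-/- library, at 78.4 against 36.2 FPKM, and 1.96 times in the wild type library, at 44.7 against 22.8 FPKM. By counts the order of the libraries turned, with 2144 for these 4 genes and 1272 for the subunits in the Lgmn-/- library, or 1.69 times, and 1399 and 806 in the wild type library, or 1.74 times.

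The order of levels per transcript length was similar in both libraries. Nfkbia was the most abundant member and Tnfaip3 the next. By FPKM, Nfkbia ranked 1343 of 14756 listed genes in the Lgmn-/- library and 2222 of 14681 in the wild type library. In the Lgmn-/- library the order was Nfkbia, Tnfaip3, Tnf, Rela, Nfkb2, Nfkb1, Relb, Nfkbie, Rel and Nfkbiz, and Tnf and Rela, Nfkb1 and Relb, Relb and Nfkbie, and Rel and Nfkbiz did not differ beyond counting error. In the wild type library it was Nfkbia, Tnfaip3, Rela, Tnf, Nfkb2, Relb, Nfkb1, Nfkbie, Nfkbiz and Rel, and Tnf and Nfkb2, Nfkb2 and Relb, Relb and Nfkb1, and Nfkbiz and Rel did not. Tnf lay below Rela beyond counting error in the wild type library, where Rela had 1.64 times its FPKM (1.31 to 2.06). The Nfkbia level was 3.22 times that of Tnfaip3 in the Lgmn-/- library (2.94 to 3.52) and 1.85 times in the wild type library (1.65 to 2.08). Rela made up 35.6% of the summed FPKM of the 5 subunits in the Lgmn-/- library and 39.7% in the wild type library.

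Across genes, longer transcripts had higher ratios, with a Spearman rho of 0.609 over 9499 genes that share both libraries. Over the 10 members the order ran the other way, with a rho of -0.685, given as a description of 10 points from the same libraries. The shortest members, Nfkbia and Tnf, were among those with the largest ratios, and the longest, Tnfaip3, at 4383 bases in the Lgmn-/- library and 4395 in the wild type library, had the smallest. In the eighth of the length groups, which holds Nfkb1 and Tnfaip3, 3813 to 4558 bases long, the median log2 ratio was 0.27, so Nfkb1 at 0.55 lay above it and Tnfaip3 below it.

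**Figure D3:**
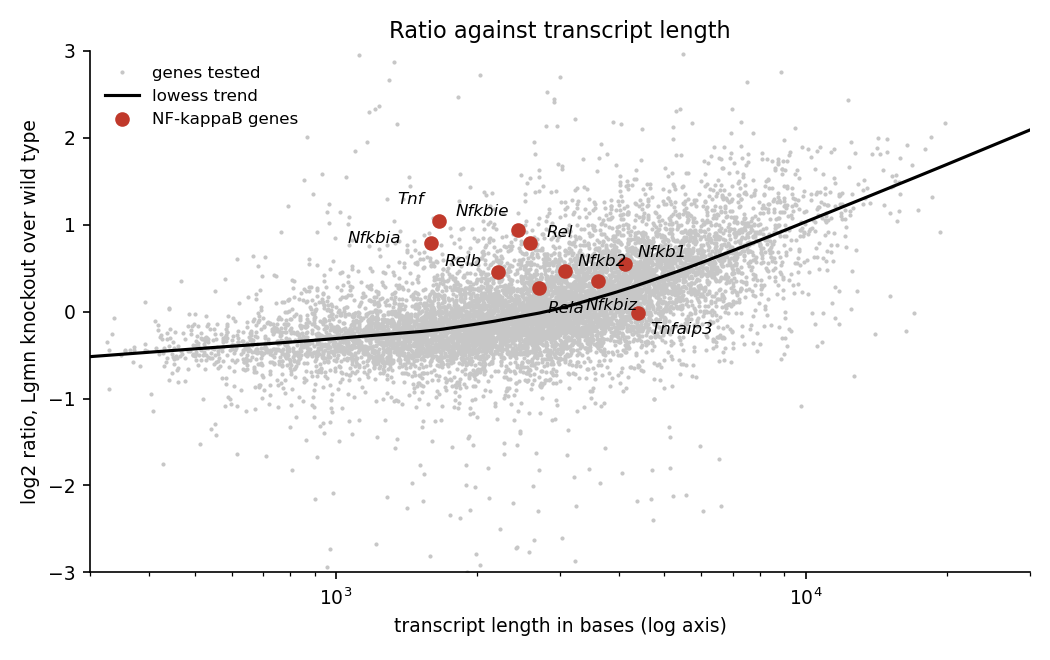
Log2 ratio of Lgmn-/- over wild type against transcript length on a log axis for the genes tested (grey), the smoothed trend (line) and the 10 members (red), with 18 genes outside the plotted range. All members except Tnfaip3 lie above the line, and Tnf, at 1653 bases and 1.04, lies farthest above it.

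The other genes of the pathway were described from 5 lists by role, by counts and medians only. Among 18 other IkappaB proteins and inhibitors, 2 were at least 2-fold higher and 0 lower, against 6.05% and 1.74% of all genes tested. Their median log2 ratio was 0.05. Bcl3, a nuclear IkappaB protein that binds p50 and p52 dimers, had 131 estimated counts in the Lgmn-/- library and 37 in the wild type library, 3.04-fold higher (2.09 to 4.50), and a length-adjusted log2 ratio of 1.75. N4bp1, an inhibitor of TLR signalling to NF-kappaB, was 2.19-fold higher (1.87 to 2.57), but its transcript of 6469 bases is long and its length-adjusted log2 ratio was 0.50. Nfkbib, which encodes IkappaB-beta, the IkappaB that is not part of the rapid feedback loop, had 815 counts in the Lgmn-/- library and 988 in the wild type library, a ratio of 0.708 (0.644 to 0.777). The IkappaB genes thus differed among themselves, with Nfkbia and Nfkbie above 1 and Nfkbib below 1 beyond counting error under TMM scaling. The log2 ratio of Nfkbib was -0.50 with TMM scaling and -0.25 after length adjustment. With library totals it was -0.26, where the median of all genes tested was 0.24.

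Of 16 kinase genes tested out of 17, 0 passed 2-fold in either direction, against 6.05% of all genes higher and 1.74% lower. Their median log2 ratio was 0.25, and 0.04 after length adjustment. Ikbke, an IkappaB kinase-related enzyme induced by inflammatory signals, was the highest at 1.73-fold (1.49 to 2.01). Map3k7, which encodes TAK1, followed at 1.49-fold, and Irak4, a kinase of toll-like receptor signalling, at 1.48-fold. After length adjustment the log2 ratios of these 3 were 0.71, 0.05 and 0.56. Chuk and Ikbkb, the catalytic subunits of the IkappaB kinase complex, had ratios of 1.43 (1.19 to 1.72) and 1.14 (1.01 to 1.29). Their length-adjusted log2 ratios were 0.38 and 0.02. Map3k14, which encodes NIK, had 43 counts in the Lgmn-/- library and 18 in the wild type library and was below the minimum.

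Of 23 TNF receptor and adaptor genes, 0 passed 2-fold in either direction, against 6.05% of all genes higher and 1.74% lower. The median log2 ratio was 0.29, and 0.14 after length adjustment. The 3 with the largest differences were Tnfrsf9, a costimulatory receptor, at a ratio of 0.534 (0.466 to 0.611), Traf3, an adaptor that restrains NIK, at 1.67 (1.24 to 2.26), and Cflar, a caspase-8 inhibitor, at 1.58 (1.42 to 1.76). After length adjustment the log2 ratio of Traf3 was 0.01. Of the receptors for TNF itself, Tnfrsf1b had 5031 counts in the Lgmn-/- library and 2889 in the wild type library, 1.49-fold higher. Its length-adjusted log2 ratio was 0.18. Tnfrsf1a had 1362 counts in the Lgmn-/- library and 1140 in the wild type library, a ratio of 1.03 (0.947 to 1.11).

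Of 36 genes known as NF-kappaB targets, 31 were tested, with a median log2 ratio of -0.04. On the higher side 6 passed 2-fold and on the lower side 2, against 6.05% and 1.74% of all genes tested. The list did not share a direction, since 14 of 31 ratios lay above 1, against 4746 of all 9499 genes tested. Il1b encodes interleukin-1 beta and was higher by 4.50-fold (3.52 to 5.82). Nlrp3, an inflammasome sensor, was 2.64-fold higher and Irf1, an interferon-induced transcription factor, 2.57-fold (2.44 to 2.72). Cxcl1, a neutrophil chemokine, was 2.39-fold higher (1.63 to 3.58), Nos2, inducible nitric oxide synthase, 2.33-fold (2.08 to 2.62), and Sod2, mitochondrial superoxide dismutase, 2.10-fold (1.98 to 2.22). After length adjustment Nos2, at a log2 ratio of 0.96, and Sod2, at 0.87, lay under 2-fold, and Cxcl2, a neutrophil chemokine, lay past it at 1.12. By this measure 5 genes of the list were past 2-fold on the higher side and 1 on the lower, against 2.14% and 1.89% of all genes. Several of these targets are also induced by interferon or interleukin signals, so they are not specific to NF-kappaB. In the other direction, Il1rn, the interleukin-1 receptor antagonist, had 3216 counts in the Lgmn-/- library and 7246 in the wild type library, a log2 ratio of -1.39. Ccl3, a chemokine, had 1784 counts in the Lgmn-/- library and 3223 in the wild type library, with a log2 ratio of -1.07, or -0.72 when adjusted for length. The median of the list was 0.20 with deposited FPKM and 0.12 after length adjustment, against 0.23 and -0.01 over all genes tested.

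Of 10 genes for RNA-binding proteins that act on Tnf mRNA or similar mRNAs, 3 were at least 2-fold higher and 0 lower. Over all genes tested the shares were 6.05% and 1.74%. The median log2 ratio of the 10 was 0.69. After length adjustment the median was 0.48 and 0 passed 2-fold, against 2.14% of all genes higher and 1.89% lower. Rc3h2, which encodes roquin-2, was 2.75-fold higher (2.04 to 3.76) with TMM scaling. Tia1, a translational silencer, was 2.40-fold higher (1.62 to 3.64), and Rc3h1, which encodes roquin-1, 2.09-fold (1.61 to 2.74). The transcripts of both roquin genes are long, at 8981 and 11011 bases, and their length-adjusted log2 ratios were 0.52 and -0.07. Zfp36, which encodes tristetraprolin, the main destabiliser of Tnf mRNA, had 550 counts in the Lgmn-/- library and 397 in the wild type library, 1.19-fold higher (1.04 to 1.36). Zc3h12a, which encodes the RNase regnase-1, had a ratio of 0.844 (0.730 to 0.977), or a log2 ratio of -0.24. With library totals this log2 ratio was -0.01, where the median of all genes tested was 0.24.

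**Figure D4:**
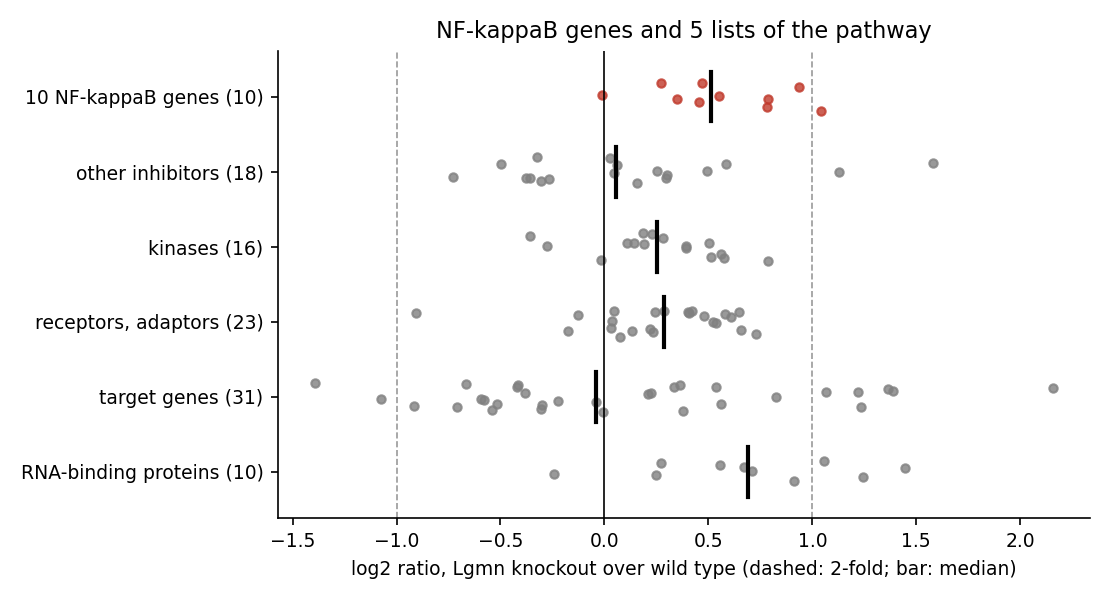
Log2 ratio of Lgmn-/- over wild type for the tested genes of the 10 members (red) and of 5 pathway lists (grey), with the number tested in brackets, black bars at the medians and dashed lines at 2-fold. The members' median is 0.51, and the target genes spread from -1.39 to 2.16 around a median of -0.04.

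Some markers of other cells also differed between the libraries. All 13 macrophage markers were tested, and 8 had a ratio above 1, as did 4746 of all 9499 genes tested. Their median log2 ratio was 0.40, and 0.39 after length adjustment, against 0.51 and 0.49 for the 10 members. Mertk, a receptor for dying cells, passed 2-fold at 2.35 and 0 markers passed on the lower side, against 6.05% and 1.74% of all genes. Csf1r, the receptor for the macrophage growth factor CSF1, had a ratio of 1.95, Itgam, an integrin chain, 1.53, and Adgre1, which encodes F4/80, 1.39. Below 1 were Cd68, at a ratio of 0.614, Lyz2, at 0.801, Fcgr1, an Fc receptor, at 0.802, Cd14, at 0.924, and Spi1, at 0.978. After length adjustment the log2 ratios of these genes were, in this order, -0.44, -0.02, -0.28, 0.09 and 0.20. Those of Mertk, Csf1r, Itgam and Adgre1 were 1.08, 0.75, 0.26 and 0.39. The summed FPKM of the list was 20268 in the Lgmn-/- library and 21164 in the wild type library, most of it from Lyz2, which encodes lysozyme, at 12481 FPKM in the Lgmn-/- library and 13192 in the wild type library, and from Cd68, at 3756 FPKM in the Lgmn-/- library and 5173 in the wild type library. Of 16 T and NK cell markers 9 were tested. Among these 9, 4 were at least 2-fold higher and 0 lower, against 6.05% and 1.74% of all genes tested. The summed FPKM of the list was 313 in the Lgmn-/- library and 165 in the wild type library. Most of it came from 2 granzyme genes. Gzma had 164 FPKM in the Lgmn-/- library and 91.3 in the wild type library, and Gzmb 89.4 in the Lgmn-/- library and 46.2 in the wild type library. T and NK cells also express Tnf, Rel and the other NF-kappaB genes. Of 11 fibroblast and mesothelial markers 6 were tested and all 6 were at least 2-fold lower, against 1.74% of all genes tested. The summed FPKM of the list was 8.66 in the Lgmn-/- library and 32.7 in the wild type library. These 6 included Krt19, with 4 counts in the Lgmn-/- library and 67 in the wild type library. Krt19 is a keratin gene that epithelial cells also express, and it was not in the carcinoma epithelial list. No gene of the B cell and carcinoma epithelial lists reached the minimum, with at most 25 counts for any gene of these 2 lists in the Lgmn-/- library and 21 in the wild type library, and Pax5, Ighm, Krt5 and Krt14 were listed in neither. Of 9 dendritic cell markers 2 were tested, with 1 higher and 1 lower, and a summed FPKM of 7.96 in the Lgmn-/- library and 8.06 in the wild type library, and Flt3 and Siglech were listed in neither. Of 8 neutrophil markers 3 were tested and 0 passed 2-fold, with a summed FPKM of 122 in the Lgmn-/- library and 91.8 in the wild type library. Most of that sum came from S100a8, at 106 FPKM in the Lgmn-/- library and 83.0 in the wild type library. The part of these cells, and of the difference in macrophage markers, in the ratios of the members was not tested.

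Across the settings tried, the order of the members changed little. Tnf had the largest and Tnfaip3 the smallest log2 ratio in every setting, and Tnf ranged from 1.02 to 1.28 over the alternatives. Nfkbia, Nfkbie and Rel ranged from 0.78 to 1.02, 0.90 to 1.17 and 0.72 to 1.02. With library totals 4 members passed 2-fold, Tnf, Nfkbie, Nfkbia and Rel, against 10.9% of all genes, and with deposited FPKM 3 did, without Rel, against 9.85%. On the lower side 0 members passed in either setting, against 1.13% and 1.07% of all genes.

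**Figure D5:**
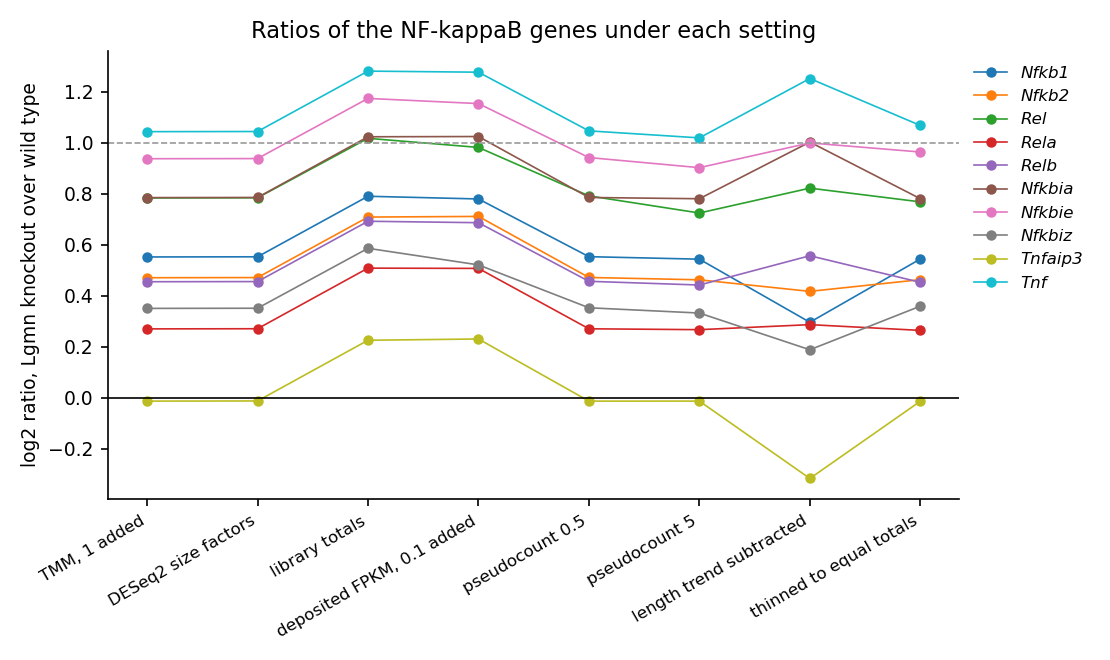
Log2 ratio of Lgmn-/- over wild type for each member (lines) under TMM scaling and 7 alternatives, with a dashed line at 2-fold. Library totals and FPKM lift all 10 genes together, and subtraction of the length trend raises Tnf to 1.25 and lowers Tnfaip3 to -0.32.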

How the data were processed

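RNA of 1 Lgmn-/- and 1 wild type sample was made into cDNA libraries and read with BGISEQ-500, per the labels' protocols. The deposited tables hold an estimated count, FPKM and a transcript length per Entrez gene, per the file headers. The authors' estimated counts are not scaled between libraries, and the authors' FPKM is scaled to transcript length and to mapped fragments. The submitters' processing notes name HISAT2, Bowtie2, RSEM and mm10 but give neither roles nor versions. The lowest FPKM listed was 0.01, and a gene missing from a file was treated as having no counts there. Strand use in counting is not stated in the labels or headers, and reads of overlapping or antisense genes may be mixed. Symbols were looked up in RefSeq's GRCm38.p6 gene table, the assembly of mm10, which matched 15561 of 15605 identifiers.

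Counts were rounded and scaled with TMM in edgeR 4.0.16 (R 4.3.3), with factors of 1.09 for the Lgmn-/- library and 0.921 for the wild type library. Log2 ratios were taken after adding 1 scaled count. The length trend was a lowess fit with a span of 0.3 (statsmodels 0.14.6). Intervals cover counting error only, because there was 1 library per group. PCR copies cannot be told from separate molecules here, so the intervals may be too narrow even for counting error. Intervals were computed with scipy 1.17.1. Alternatives were DESeq2 1.42.0 size factors, library totals, deposited FPKM with 0.1 added, pseudocounts of 0.5 and 5, the deeper library thinned, minimums of 10, 200 and none, and thresholds of 1.5-fold and 4-fold. The calculation was tested on simulated data. The members and lists were chosen with earlier results of these data known. The text names all members, Lgmn, and of each list every gene past 2-fold or otherwise the 3 with the largest differences. Csf1r, Itgam, Adgre1, Lyz2, Cd68, Fcgr1, Cd14, Spi1, Gzma, Gzmb, S100a8, Krt19 and Cxcl2 were chosen after their values were seen. So were Nfkbib, Chuk, Ikbkb, Map3k14, Tnfrsf1a, Tnfrsf1b, Zfp36, Zc3h12a, Il6, Il12b, Gpr84, Il23a and Lcn2. Likeness of pattern to other genes was not computed, since 2 libraries give 1 ratio per gene.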

Additional observations from a re-analysis of the deposited data

How the results depend on the processing

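No paired analysis was possible because there was 1 library per group, and no replicate could be left out. With library totals, 4 members were at least 2-fold higher, as were 1036 of all genes, with 107 lower, and 1 lower gene over the 5 pathway lists. With deposited FPKM the numbers were 3 members, 936 and 102 of all genes, and 1 lower list gene. With the length trend subtracted they were 2 members, 203 higher genes, and 6 higher and 1 lower list genes. With TMM scaling they were 1 member, 575 and 165 genes, and 11 and 2 list genes. A minimum of 10 counts gave 926 and 439 genes, one of 200 gave 273 and 67 genes with 7 higher list genes, and none gave 1458 and 1533. A threshold of 1.5-fold gave 4 members, 1562 and 607 genes, and 20 and 8 list genes. One of 4-fold gave 0 members, 40 and 45 genes, and 1 and 0 list genes. Of the members' log2 ratios, that of Tnfaip3 changed sign, to 0.23 with library totals and 0.23 with FPKM. Those of Rela with these scalings, and of Nfkbia with these and with length adjustment, left their counting intervals, at 0.51 and 0.51, and 1.02, 1.02 and 1.003. That of Tnfaip3 left its interval on the lower side with length adjustment, at -0.32. For the scalings, the shift of all genes is the construction of the alternative. No member was at least 2-fold lower under any setting. Rel had the fewest counts of the members, 69 in the Lgmn-/- library and 34 in the wild type library.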

Other observations

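Some inflammatory targets of NF-kappaB were too low to be tested. Il6, a pyrogenic cytokine, had 2 estimated counts in the Lgmn-/- library and 7 in the wild type library, and Il12b, a subunit of interleukin-12, had 4 in the Lgmn-/- library and 1 in the wild type library. Gpr84, a receptor for medium-chain fatty acids, had 18 counts in the Lgmn-/- library and was not listed in the wild type library. Il23a, a subunit of interleukin-23, had 3 counts in the Lgmn-/- library and was not listed in the wild type library. Lcn2, an iron-sequestering protein induced through IkappaB-zeta, was tested, with 86 counts in the Lgmn-/- library and 112 in the wild type library. Its ratio under TMM scaling was 0.659 (0.492 to 0.880), or -0.60 in log2. Subtraction of the length trend brought the Lcn2 value to -0.26. For Nfkbiz the 2 log2 values were 0.35 and 0.19. The counting interval of the Nfkbiz ratio, 0.910 to 1.81, includes 1. Consensus kappaB matches were present in a promoter window of 6 of 15 other inhibitors, 7 of 23 target genes, 2 of 13 kinases, 2 of 19 TNF receptors and adaptors and 0 of 8 RNA-binding proteins, counting tested genes with a window, against 6.1% of all tested genes.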
